A study of Mus musculus with 8 samples.

Results

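The regions described here are 1448 windows of 1 kb on mouse chromosomes 1 to 19 in which few CpG dinucleotides were measured and in which these CpGs carried little methylation. A window was kept when it had 3 to 9 CpGs listed for any mouse, at least 3 of them with 10 or more reads in all 8 mice, a level between 5 and 40% as the mean of the 8 mice, and a distance of over 2 kb from both ends of every protein-coding gene. They were 1448 of the 30636 windows that met the same conditions on CpG number and distance at any level, a share of 4.73%, and 1448 of the 87866 windows with at least 3 usable CpGs. The level of a window is the share of its reads that were methylated, with strands and CpGs added up for a mouse and then averaged over mice. These levels chose the windows, so that they are a description, and only the comparison of genotypes, which the rule did not use, is tested. The limits apply to the mean of the 8 mice, so that a window can meet them through either genotype alone.

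The libraries came from hematopoietic stem cells sorted from the bone marrow of individual C57BL/6 mice as lineage-negative, c-Kit+ and Sca-1+ cells without Flk2 or CD48 and with CD150, and not cultured; no expression was measured here, so that the cell type rests on the sort. The 4 knockouts, mice 25, 28, 45 and 46, carried loxP-flanked Atg12 alleles (Atg12 fl/fl) and Mx1-cre, and the 4 controls were mice 1, 34, 36 and 37. The genotype label of the controls reads WT, while the design text gives them the same flox/flox alleles without Cre. All 8 mice had received poly(I:C) at 4 weeks of age, and cells were taken 2 to 3 months later. Mx1-cre is switched on by interferon in many cell types and not in stem cells alone, the labels give no sex, and whether Atg12 was deleted was not analysed here. DNA methylation was read by enhanced reduced representation bisulfite sequencing (ERRBS), which sequences CpG-rich restriction fragments of DNA treated with bisulfite, so that unmethylated cytosines read as thymine. The labels say nothing of litters or dates, and the p-values measure the spread between these mice.

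Most CpGs of a mammalian genome are methylated, and the main exceptions are CpG islands at gene starts, which are dense in CpGs. CpG-poor stretches of intermediate, low methylation away from promoters were described in mouse embryonic stem cells as low-methylated regions, where binding of transcription factors goes along with loss of methylation and where many enhancers lie. Hematopoietic stem cells use many such distal regions for their own regulators and for those of the blood lineages they can form. ATG12 is a ubiquitin-like protein that is joined to ATG5 and is needed to build the autophagosome, the membrane sac of autophagy.

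No window sequence is shown, since a genome of the mm10 build was not used here, and the sequences below are promoters from RefSeq (build GRCm38.p6, the same assembly as mm10) that begin inside such windows. The starts of 37 genes in that table, in 39 promoter entries, lay in 37 of the 1448 windows, a share of 2.56%, against 0.923% of the sparse windows above 40% and 5.97% of those below 5%. They are mostly non-coding genes or alternative starts, since both ends of every protein-coding gene were kept over 2 kb away. The 5 genes whose promoter held at least 4 usable CpGs are printed, a choice made after their values were seen. Each run gives 250 bases before the start and 50 from it, 5′ to 3′ on the gene's strand, and capitals mark the CpGs with 10 or more reads in all 8 mice.
Nr1h3, chr2:91194986-91195285, minus strand: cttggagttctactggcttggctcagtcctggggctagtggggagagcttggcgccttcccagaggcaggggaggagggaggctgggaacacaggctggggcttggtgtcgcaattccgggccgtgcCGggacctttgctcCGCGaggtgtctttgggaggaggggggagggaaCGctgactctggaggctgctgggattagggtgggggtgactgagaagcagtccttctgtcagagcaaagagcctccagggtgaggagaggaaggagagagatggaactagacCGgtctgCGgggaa
Gm13652, chr2:75136766-75137065, minus strand: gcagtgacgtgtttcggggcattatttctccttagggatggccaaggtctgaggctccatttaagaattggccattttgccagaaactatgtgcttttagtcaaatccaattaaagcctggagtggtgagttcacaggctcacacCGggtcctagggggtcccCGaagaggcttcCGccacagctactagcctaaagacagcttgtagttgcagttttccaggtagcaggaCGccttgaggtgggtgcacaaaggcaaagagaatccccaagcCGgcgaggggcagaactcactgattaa
Gm31179, chr2:132035257-132035556, plus strand: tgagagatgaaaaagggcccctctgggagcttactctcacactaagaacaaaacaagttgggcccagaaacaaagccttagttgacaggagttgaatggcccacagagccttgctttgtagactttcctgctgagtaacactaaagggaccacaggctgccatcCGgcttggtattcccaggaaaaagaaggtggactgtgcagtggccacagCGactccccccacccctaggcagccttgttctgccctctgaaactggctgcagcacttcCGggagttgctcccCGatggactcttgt
Gm33011, chr4:138938559-138938858, minus strand: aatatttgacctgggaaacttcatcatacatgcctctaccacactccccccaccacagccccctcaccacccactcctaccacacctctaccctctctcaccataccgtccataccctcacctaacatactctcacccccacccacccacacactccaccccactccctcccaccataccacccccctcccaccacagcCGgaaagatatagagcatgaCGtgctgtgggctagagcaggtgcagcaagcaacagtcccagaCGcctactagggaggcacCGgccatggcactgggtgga
Gm30525, chr11:53307732-53308031, minus strand: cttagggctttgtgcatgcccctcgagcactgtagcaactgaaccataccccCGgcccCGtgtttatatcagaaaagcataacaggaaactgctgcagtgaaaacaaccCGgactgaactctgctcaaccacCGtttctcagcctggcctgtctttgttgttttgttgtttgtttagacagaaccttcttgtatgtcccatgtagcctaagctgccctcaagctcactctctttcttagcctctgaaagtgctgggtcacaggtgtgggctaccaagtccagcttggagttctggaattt

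Nr1h3 encodes the oxysterol receptor LXR-alpha, and the start shown is 1 of its 2 inside a window; the window that holds it had a level of 6.10%. Its level was 3.9, 4.0, 3.5 and 11.4% in the knockouts and 8.1, 6.0, 5.2 and 6.7% in the controls, so that the groups overlapped and knockout 46 was the highest mouse. Of the 6 CpGs in capitals in its promoter, the 2 nearest the end of the printed run lie in the next window. The other 4 promoters belong to predicted or non-coding genes for which no role is given here. The window of Gm30525 had a level of 7.19%, with 4.5, 14.5, 19.0 and 0.9% in the knockouts and 3.8, 3.6, 4.5 and 6.7% in the controls. Those of Gm13652, Gm31179 and Gm33011 were higher, at 33.4, 33.8 and 28.4%. Knockouts and controls overlapped in all 5 windows, and their adjusted p-values were 0.903 to 0.995.

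Short motifs, 10 in number, of blood transcription factors were looked for on both strands of these promoters. The RUNX motif TGTGGT, the core bound by RUNX factors such as the stem cell regulator RUNX1, was in 13 of the 39 promoter entries, a share of 33.3%, against 16.8% of all 32851 promoters in the table. The Gm33011 promoter held 4 matches to it. The GATA motif AGATAA was in 3 of the 39 (7.69%), against 11.2% of all promoters, and the PU.1 motif GAGGAAGT in 1 (2.56%), against 3.20%. The other 7 motifs were in 2 to 10 of the 39. Also above the share of all promoters were the E-box CAGCTG (23.1%, against 16.3%), AP-1 TGANTCA (12.8%, against 7.81%), the HOX-MEIS motif TGACAG (25.6%, against 19.2%) and the ETS motif CCGGAAGT (5.13%, against 3.89%). Below it were C/EBP TTGCNNAA (7.69%, against 10.8%), CTCF AGGGGGC (5.13%, against 10.6%) and MYB AACGG (10.3%, against 17.4%). The entries of Nr1h3 overlap each other, as do those of Gm41996, and no share was tested. The 39 entries held a median of 5 CpGs, against 7 in all promoters, and the shares were not matched for base composition. A match of letters is not a binding site, and 39 promoters are a small part of the 1448 windows. Hairpins of 2 microRNAs also lay inside windows, Mir3075 within Zmiz1 (level 26.6%) and Mir6405 within Pax2 (7.68%).

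Low levels were rare among the sparse windows. Of the 30636, 28384 were above 40% and 804 were below 5%, and the bin from 95 to 97.5% alone held 9057. The median of the 1448 low windows was 19.98%, with quartiles of 11.9 and 30.8%. There were 277 windows from 5 to 10%, 447 from 10 to 20%, 342 from 20 to 30% and 382 from 30 to 40%, so that they filled the range without a peak. The limits of the rule cut through this continuum. Just inside 5% were windows in Zfp423 (5.03%) and Mpp6 (5.03%), and just outside it were those near Mtx2 (4.99%) and Meis2 (4.98%). Just inside 40% were windows near Diaph3 (39.99%) and in Pou2f2 (39.94%), and just outside it were those near Efhd2 (40.01%) and Mast4 (40.07%).

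**Figure D1:**
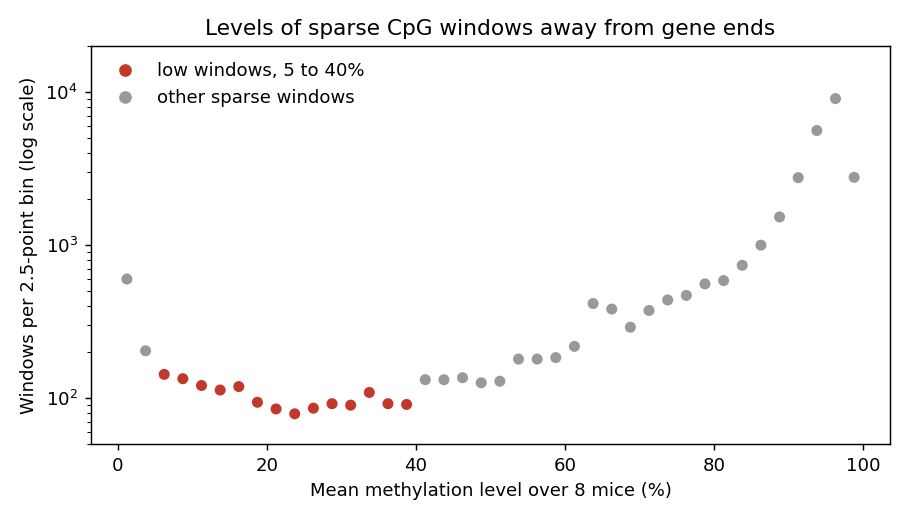
Number of sparse windows away from gene ends in each 2.5-point bin of mean methylation level over 8 mice, on a log scale; red points are the 1448 low windows and grey points are all others. The low windows lie in the trough between the 600 windows under 2.5% and the main peak of 9057 windows from 95 to 97.5%.

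The windows rest on few CpGs. Sparse here means few listed CpGs, and the CpGs that a window has in the genome were not counted. The Gm38477 promoter lies wholly inside a low window and holds 12 CpGs, of which 4 are listed. Of the 1448, 756 (52.2%) had 3 usable CpGs, 303 had 5 or more, and the highest number was 8, for 5496 CpGs in all. The usable CpGs spanned a median of 117 bp, so that a window describes a stretch much shorter than 1 kb. A window had a median of 777 reads in a mouse, with a range from 30 to 104478, and in 100 windows at least 1 mouse had under 100 reads. Reads of a window are sums over its CpGs here and below. A read that covers several CpGs is counted once for each, so that these numbers exceed the reads sequenced. Among the 783 CpGs read on both strands 10 times or more in all mice, the strands differed by a median of 3.57 points and 80.3% were within 10 points.

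Neighbouring CpGs of a window often differed. The gap between the lowest and the highest CpG of a window had a median of 26.7 points, against 8.31 points in sparse windows above 40% and 33.5 points in CpG-dense windows (10 or more listed CpGs) of the same distance and levels. In 990 windows (68.4%) every CpG was at or under 50%, and in 112 (7.73%) a CpG at or under 20% stood beside another at or over 80%. In 141 windows (9.74%) a CpG was at or under 1% in all 8 mice, and in 7 of these another was at or over 80% in all 8. A window in Slc35f3, a gene for a thiamine transporter, shows what a low mean can hold. Its level was 33.3, 33.8, 33.1 and 33.3% in the knockouts and 31.2, 33.3, 32.4 and 33.0% in the controls, the least variable of all the windows, with an SD over the 8 mice of 0.799 points. Its 3 CpGs within 47 bp had levels of 0.0490, 98.4 and 0.294%, so that the window average is that of no CpG in it. The mean of this window is low although a CpG in it was methylated in nearly all reads.

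Low windows lay in gene bodies about as often as other sparse windows, in 711 cases (49.1%) against 47.5% above 40%. Where they lay outside genes, their median distance to a gene was 23613 bp for 737 windows, against 48298 bp above 40%, 21814 bp for sparse windows below 5% and 22168 bp for CpG-dense windows of 5 to 40%. A window dense in CpGs was within 2 kb of 533 of them (36.8%), against 20.3% of sparse windows above 40%, 41.9% of those below 5% and 55.4% of the CpG-dense windows of 5 to 40%. Long non-coding RNA genes covered 229 (15.8%), against 11.2% above 40%, 17.8% below 5% and 17.9% of the CpG-dense windows. By chromosome, their share of sparse windows was between 3.67% on chromosome 17 and 6.51% on chromosome 11.

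Neighbouring windows had higher mean levels, at 1 kb with many low ones among them. The low windows were chosen by level, and their neighbours, which needed only 1 usable CpG, were not. Higher means in the neighbours therefore follow in part from the choice. The low windows had a mean level of 21.2%, against 42.9% (n = 339) and 42.8% (n = 295) in the windows 1 kb before and after, where measured, and 58.4 and 57.5% at 2 kb. The medians were 32.95 and 28.6% at 1 kb, so that most measured neighbours there were below 40%, and 83.1 and 81.4% at 2 kb. At 10 kb the means were 60.8 and 59.7%. CpG-dense windows of 5 to 40% rose likewise, from 18.5% to 36.1 and 37.3% at 1 kb and 48.7 and 47.5% at 2 kb. Both neighbours were measured for 69 low sparse windows, of which 15 (21.7%) had both above 60%, 18 had both below 40%, and 30 had one of each kind. Of the 565 windows with a measured neighbour, 161 (28.5%) had one below 5%. Some low windows thus lay between measured neighbours of high level, and others lay beside a neighbour below 5%. Runs of adjoining windows that met the whole rule were few, but most of the 1448 windows had no measured neighbour at 1 kb. There were 14 runs of 2, with none longer, among them pairs in Glis1 (9.93 and 12.9%), near Mn1 (14.5 and 12.5%) and near Pou3f1 (8.71 and 11.4%).

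**Figure D2:**
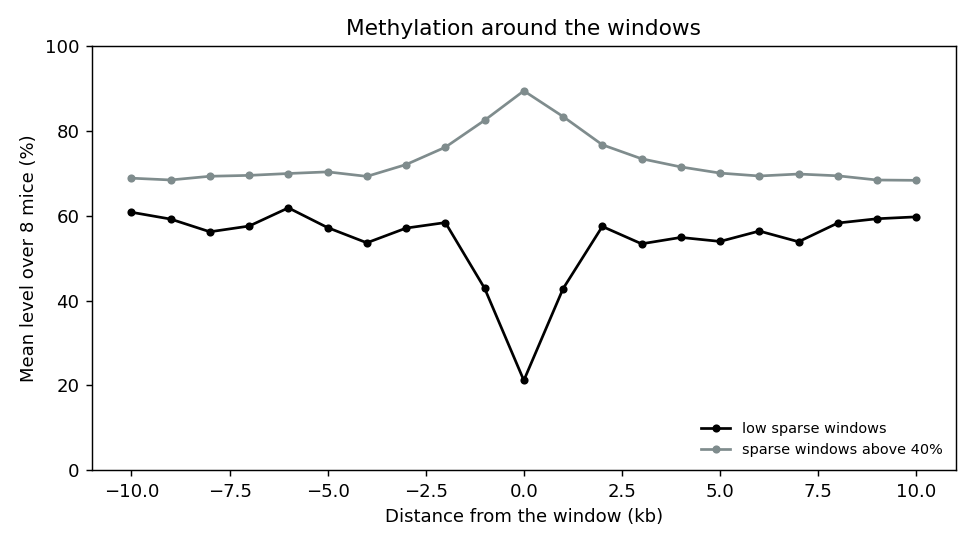
Mean level over 8 mice of windows up to 10 kb before and after, for the low sparse windows (black) and sparse windows above 40% (grey). Levels go from 21.2% at the low windows to 42.8 and 42.9% at 1 kb and 57.5 and 58.4% at 2 kb, below those of the grey line at every distance. Both sets of windows were chosen by their own level, and the neighbours were not.

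Of the 1448 windows, 1305 had a protein-coding gene around them or within 100 kb, 1139 genes in all. Most genes had a single window (1002), 111 had 2 and 26 had 3 or more. Igsf21, Pax2 and Tbx3 had 4 each. Developmental transcription factors among the 26 were Pax2, Tbx3, Pax7, Lmx1b and Cux1. Runx3, a Runt factor of blood lineages, had 3 windows within 100 kb outside its gene (34.4, 20.9 and 13.5%) of its 12 sparse windows. Rara, the retinoic acid receptor alpha, had 3 inside the gene (11.9, 29.1 and 26.6%) of its 5.

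Gene lists for stem cell, lineage, interferon, autophagy and other tissue genes show how the windows fall among known regulators. Near stem cell transcription factors 7 of 97 sparse windows (7.22%) were low, against 1305 of 25348 (5.15%) around all genes. These 7 were near Erg, Etv6, Hlf, Mecom, Msi2 and Prdm16. Near stem cell surface genes, which include those of the sorting gate, none of 38 was low, and near autophagy genes none of 36. The share was 3 of 40 (7.5%) for myeloid genes, 8 of 97 (8.25%) for lymphoid genes, 4 of 25 (16.0%) for erythroid and megakaryocyte genes, and 2 of 34 (5.88%) for interferon pathway genes. It was 5 of 64 (7.81%) for genes of liver, muscle, nerve and epithelium, a share within the range of the blood lists. Of the 4 erythroid and megakaryocyte windows, 3 had Zfpm1 as their nearest gene, so that 2 of 11 genes gave that share. All these shares are counts without a test.

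Hlf is a transcription factor of stem cells, and a window of 7 CpGs inside it had 27.1, 26.6, 49.9 and 41.8% in the knockouts and 34.2, 23.6, 32.5 and 43.1% in the controls. In Etv6, a repressor that adult stem cells need, the levels were 39.8, 35.3, 15.9 and 38.5% in the knockouts and 40.2, 19.4, 36.9 and 35.4% in the controls. Prdm16, a zinc finger protein that maintains stem cells, had 32.3, 8.3, 38.7 and 29.3% in the knockouts and 27.7, 14.2, 22.1 and 35.4% in the controls. In Etv6 and Prdm16, 1 knockout and control 34 lay below the other 6 mice, and knockouts and controls overlapped in all 3 windows. The means of the 2 genotypes differed by 3.00 points or less.

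The myeloid factor PU.1 is encoded by Spi1, and a window 2374 bp from the gene had 9.4, 11, 17.7 and 18.3% in the knockouts and 13.8, 0, 11.6 and 17.0% in the controls. The 0 in control 34 stands for no methylated read among 495 summed over 3 CpGs, which allows up to 0.606% if all were separate reads. Irf8, a factor of monocytes and dendritic cells that interferon induces, had a window 64307 bp away with 16.5, 5.1, 41 and 28.3% in the knockouts and 42.4, 18.8, 42.6 and 21.3% in the controls. The groups overlapped over most of their ranges. Near Irf2, a regulator of the interferon response that keeps mouse stem cells quiescent, the means were 25.3 ± 9.56% in knockouts and 29.5 ± 9.09% in controls (SD, n = 4 each), and near the Fc receptor gene Fcgr3 they were 20.3 ± 16.9% and 19.1 ± 7.99%.

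Among lymphoid genes, windows in Pax5, the factor of B cell commitment, and in Bcl11a were at 33.5 ± 9.45 and 34 ± 9.40% in knockouts and at 29.4 ± 7.44 and 32.9 ± 15.1% in controls. A window in Tbx21, which encodes T-bet, was at 13.7 ± 6.31% in knockouts and 21.1 ± 7.91% in controls. Among erythroid genes, a window in Car2, a carbonic anhydrase, was at 6.91 ± 7.30% in knockouts and 3.59 ± 2.20% in controls. Zfpm1, the partner of GATA factors, had 3 low windows. In its window at chr8:122294001-122295000 the levels were 10.9, 11.5, 6.7 and 9.5% in the knockouts and 12.6, 14.5, 14.4 and 16.1% in the controls. All 4 knockouts were below all 4 controls by a small margin, and the adjusted p was 0.727. Among genes of other tissues, a window in the keratin gene Krt8 had 15.2, 8.7, 28.1 and 10.8% in the knockouts and 40.3, 35.2, 28.6 and 37% in the controls. These groups were apart by less than a point at the closest pair of mice, and the adjusted p was 0.631. Windows in Afp and Rbfox3, genes of fetal liver and neurons, had means of 36.7 ± 3.25 and 19.5 ± 6.14% in knockouts and 42.2 ± 15.6 and 15.8 ± 2.70% in controls.

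**Figure D3:**
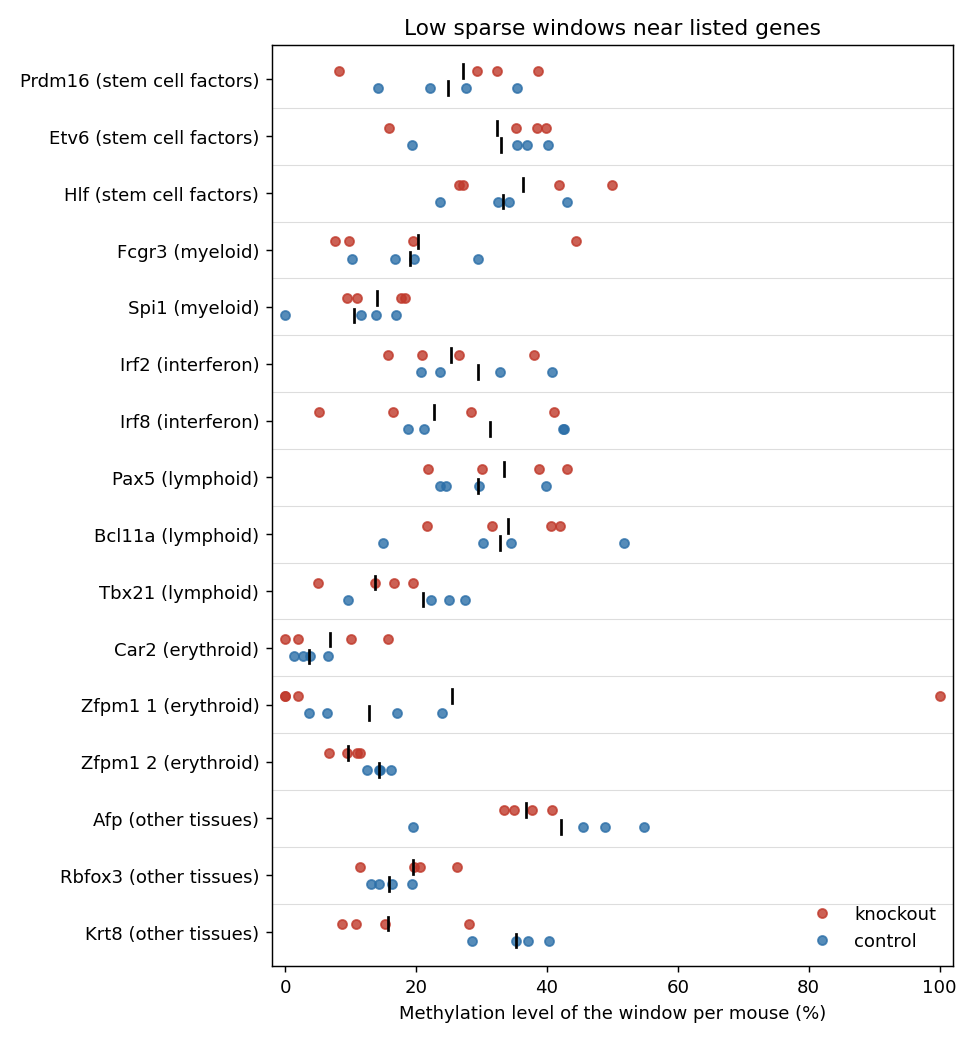
Methylation level of low sparse windows near listed genes, a point for each mouse (red knockout above, blue control below) and a bar at each mean. Zfpm1 1 is chr8:122287001-122288000 and Zfpm1 2 is chr8:122294001-122295000; groups overlap in all windows but Zfpm1 2 and Krt8, in which all knockouts are lower.

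Levels differed between mice by more in low windows than in sparse windows above 40%. The SD over the 8 mice had a median of 7.58 points, against 4.16 points in sparse windows above 40%, 5.74 points in CpG-dense windows of 5 to 40% and 7.02 points in sparse windows of the same levels at gene ends. Within a genotype, the median SD was 6.91 points in knockouts and 6.56 points in controls. The SD was under 5 points in 341 windows and over 20 points in 32. The 32 had few reads, with a median of 84.5 reads in the mouse of lowest coverage, against 482.5 over all low windows, and the part of low coverage in their spread was not tested. In a window near Slc6a17, a transporter of neurons, levels were 0, 74.4, 0 and 0% in the knockouts and 59.3, 81.6, 20 and 4.6% in the controls, with 43 to 229 reads summed over 4 CpGs. Such a window is close to all or none in several mice. A window in Zfpm1, at chr8:122287001-122288000, had 0, 0, 100 and 2.0% in the knockouts and 3.6, 6.4, 17.1 and 24.0% in the controls. The 100% rests on 142 reads summed over 4 CpGs within 36 bp. The third largest SD, 33.03 points, was that of a window in Rora, a nuclear receptor gene, and after Slc35f3 the smallest were 1.02 points near Gm2808 and 1.34 points in Shisal1. Reads without molecular identifiers are not independent DNA molecules, so that read numbers overstate the number of molecules behind a level. A level of 0 in at least 1 mouse was found for 208 windows (14.4%).

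The low windows as a whole shifted with the library. Their mean level was 18.1, 19.7, 23.0 and 21.4% in knockouts 25, 28, 45 and 46, and 23.8, 15.2, 24.4 and 23.8% in controls 1, 34, 36 and 37. Control 34 was lowest of all and knockout 25 was next. The genotype means were 20.5 ± 2.11% in knockouts and 21.8 ± 4.41% in controls (SD, n = 4 each), a difference of -1.28 points, which is smaller than the spread between mice. The difference depended on single mice. It was larger in size without control 34 (-3.48 points, with the controls at 24.0 ± 0.375%, n = 3), without knockout 45 (-2.09) and without both knockout 25 and control 34 (-2.66). It was smaller in size without control 36 (-0.40 points), knockout 25 (-0.46), control 37 (-0.61) or control 1 (-0.62). Since the windows were chosen by level, no p-value is given for their mean.

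The same libraries stood apart in how reads were spread over CpGs. The ratio of median coverage at CpGs of 90% or more to that at CpGs of 10% or less in all mice was 0.340, 0.496, 0.555 and 0.456 in knockouts 25, 28, 45 and 46 and 0.736, 0.257, 0.690 and 0.565 in controls 1, 34, 36 and 37. Control 34 had the lowest ratio and the lowest mean level, and knockout 25 came next in both. Among the other mice, every control had a higher ratio than every knockout, and a higher mean level in the low windows. Control 34 reached 63.3% of the mean of the other controls in the low sparse windows, 69.2% in CpG-dense windows and 67.9% in gene-end windows of 5 to 40%. It reached 59.0% in sparse windows below 5% and 97.3% in those above 40%, where a ratio of high levels can fall little. In points, control 34 minus the other controls was -8.80 in the low sparse windows, -0.756 below 5% and -2.44 above 40%. It was the lowest of the 8 mice in 433 of the 1448 windows. The part of the coverage ratio in these levels was not tested. Total coverage was between 324837503 and 446185845 reads over cytosines, in knockouts 28 and 25. All 4 knockouts had 7.90 to 9.01 Y-chromosome cytosines per 10000 listed, and all 4 controls had 1.15 to 1.83, while X-chromosome cytosines were 1.83 to 1.93% of those listed in knockouts and 2.42 to 2.54% in controls. The groups may therefore differ in sex, which the labels do not give, and in every comparison of knockouts and controls here genotype and sex chromosome content cannot be told apart.

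**Figure D4:**
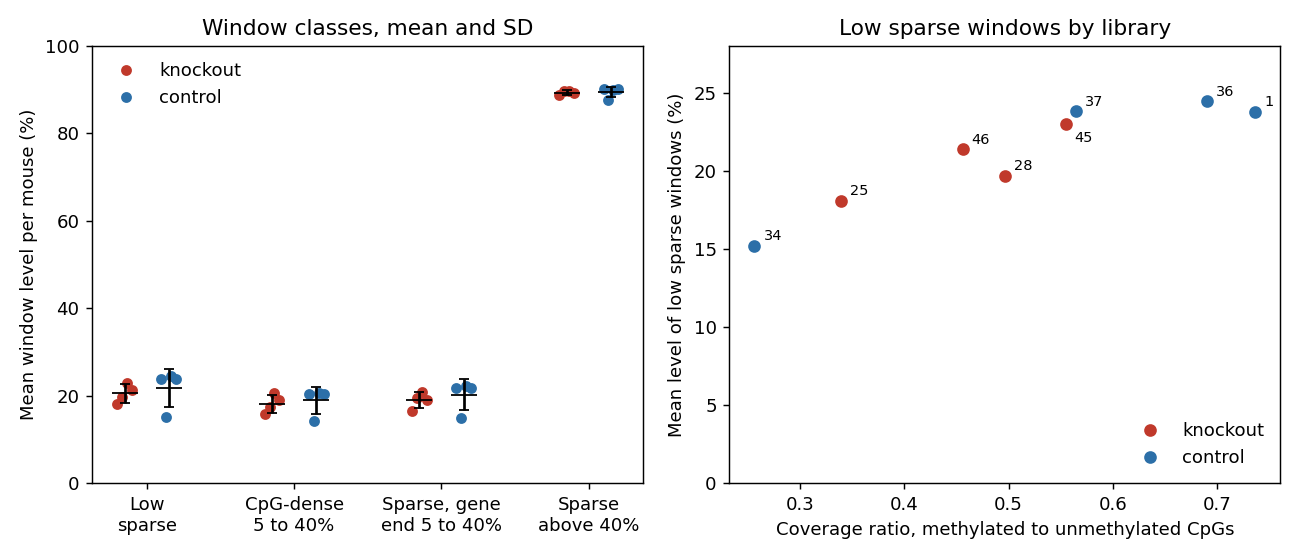
Left, mean level of 4 classes of window per mouse (points, red knockout and blue control), with the mean and SD over 4 mice as bars; right, mean level of the low sparse windows against the coverage ratio of each library, labelled by mouse number. Control 34, at a ratio of 0.257 and a level of 15.2%, is the lowest point, and knockout 25, at 0.340 and 18.1%, is the next.

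The genotypes were then compared window by window. A quasi-binomial model of the reads of each window, methylated against unmethylated, with genotype as its only term, overdispersion moderated across windows by limma and Benjamini-Hochberg adjustment, was fitted to the 40021 windows of 5 to 95%. None of the 1448 low windows was called at an adjusted p under 0.05, and 0% of the 40021 were. Nor was any called by edgeR's quasi-likelihood test or by limma on log2 ratios. The absolute difference between genotype means was under 10 points in 1235 low windows (85.3%), with a median difference of -1.11 points, against -0.26 points over all 40021 and -0.45 points over the other tested windows of 5 to 40%. The knockout mean was the lower one in 830 windows (57.3%), against 52.6% of all tested.

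At an unadjusted p under 0.05 there were 132 low windows (9.12%), against 6.5% of all tested windows, while edgeR's test gave 70 (4.83%, against 3.81% of all tested) and limma's 86 (5.94%, against 4.83%). Of the 132, 101 were lower in knockouts (6.98%, against 4.4% of all tested) and 31 were higher (2.14%, against 2.1%). Other tested windows of 5 to 40% came to 8.86%, which is close to the share of the low sparse windows. Of these 5307 windows, 319 were lower in knockouts and 151 were higher at that p. All 4 knockouts lay on one side of all 4 controls in 64 low windows (4.42%, against 3.49% of all tested and 3.37% of the other tested windows of 5 to 40%). Of these, 45 had the knockouts lower (3.11%, against 2.01%) and 19 had them higher (1.31%, against 1.48%).

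The windows of smallest p on the lower side are given as values, since none passed. Prss55 encodes a serine protease of the testis, and a window 7435 bp from it, at chr14:64067001-64068000, had 10.5, 8.7, 15.4 and 12.3% in the knockouts and 42.4, 35.4, 53.7 and 41.4% in the controls. Every knockout was below every control, and the adjusted p was 0.103. Bri3 encodes a small membrane protein, and a window inside it at chr5:144252001-144253000 had 4.8, 3.7, 0 and 7.2% in the knockouts and 34, 31.2, 44.7 and 34% in the controls. Again no mouse overlapped, with an adjusted p of 0.103. The 0 in knockout 45 was of 679 reads summed over 4 CpGs, which allows up to 0.442% if all were separate reads. At the 4 CpGs of the Bri3 window the means were 0.214 to 6.81% in knockouts and 22.4 to 45.8% in controls.

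P2rx7 encodes a cation channel that extracellular ATP opens. A window of 7 CpGs inside it, at chr5:122678001-122679000, had 1.8, 7.8, 2.6 and 1.1% in the knockouts and 15, 13.7, 24.4 and 26.2% in the controls. Knockout means were below control means at all 7 CpGs, from 0.201 to 10.9% in knockouts and 11.9 to 37.7% in controls, and the adjusted p of the window was 0.173. A window 20359 bp from Fam102a had 1.1, 1.0, 1.1 and 1.2% in the knockouts and 9.6, 8.0, 7.2 and 11.4% in the controls, with an adjusted p of 0.403. The knockouts there were nearly free of methylation and the spread was small in both groups. Its means were 1.11% in knockouts and 9.05% in controls, so that it met the 5% limit through the controls alone. Knockout means were also below 5% in the windows of Bri3 (3.93%), P2rx7 (3.30%) and Mindy4 (3.56%). The control mean of the Prss55 window (43.2%) was above 40%. In Gse1, whose protein belongs to a histone deacetylase complex, levels were 12, 14.8, 5.7 and 4.3% in the knockouts and 25.7, 23.1, 34.6 and 26% in the controls (adjusted p 0.571). Near Mindy4, a deubiquitinase gene, they were 1.8, 1.8, 5.3 and 5.3% in the knockouts and 23.0, 4.5, 31.8 and 21.8% in the controls, so that control 34 lay among the knockouts (adjusted p 0.571).

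On the higher side, a window 4571 bp from Gstm4, a glutathione S-transferase gene, had 22.9, 24.8, 27.8 and 26.3% in the knockouts and 17.4, 7.4, 16.9 and 11.3% in the controls. A window of 6 CpGs 101330 bp from Med13l, a subunit gene of the Mediator kinase module, had 28.2, 19.9, 47.3 and 32.7% in the knockouts and 17.0, 17.1, 13.8 and 18.4% in the controls. The knockouts were above all controls in both, and the adjusted p was 0.571 for each. In the Med13l window, the CpG at chr5:118458872 had means of 71.9 ± 10.1% in knockouts and 35.3 ± 9.52% in controls, and the other 5 differed by less than 20 points. In Shc1, an adaptor of receptor tyrosine kinases, levels were 20.7, 26.4, 15.7 and 31.0% in the knockouts and 9.4, 8.9, 9.7 and 6.1% in the controls (adjusted p 0.589). Windows in Sez6l and Lrrc75a and near E330021D16Rik had means of 43.4, 20.5 and 18.1% in knockouts and 30.7, 7.43 and 11.8% in controls, with adjusted p-values of 0.631, 0.631 and 0.667.

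**Figure D5:**
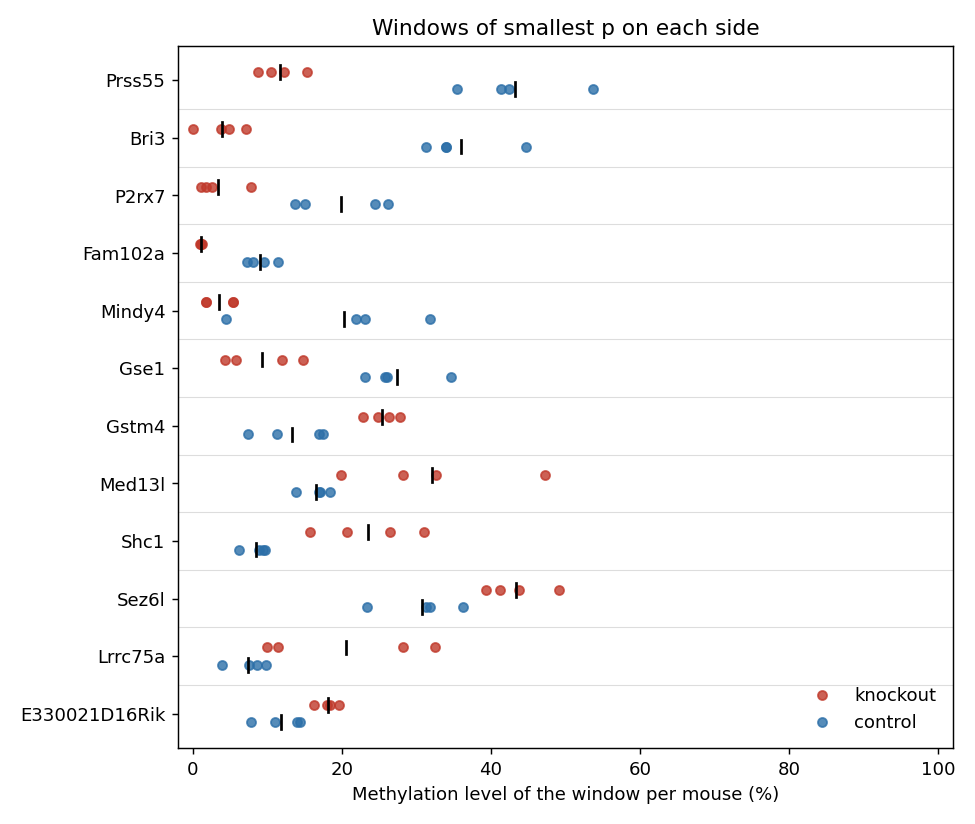
Methylation level of 12 low sparse windows, the 6 of smallest p in each direction, a point for each mouse (red knockout above, blue control below) and a bar at each mean; the upper 6 windows are lower in knockouts and the lower 6 higher. Groups overlap only near Mindy4, and adjusted p-values over all 40021 windows are 0.103 to 0.667.

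Calls depended on single libraries. Without control 34, 5 low windows (0.345%) passed an adjusted p of 0.05, all lower in knockouts, against 29 (0.0725%) of all 40021 tested. They were the windows of Prss55 (adjusted p 0.0275), Bri3 (0.0364) and P2rx7 (0.0375), a window 12745 bp from Clvs1 (7.06% in knockouts and 47.8% in controls, 0.0251) and a window in Cep85, a gene for a centrosomal protein (13.1% in knockouts and 43.6% in controls, 0.0251). In the same setting 196 low windows (13.5%) were at an unadjusted p under 0.05, against 8.27% of all tested, and 182 (12.6%) were so and lower in knockouts, against 6.57%. Every control left in that setting had a coverage ratio of 0.565 or more, and every knockout had 0.555 or less. Their mean levels in the low windows were likewise 23.8% or more and 23.0% or less. Genotype and coverage ratio therefore cannot be told apart without control 34. Without knockout 45, the Bri3 and Prss55 windows passed, at 0.0495 and 0.0483, against 11 (0.0275%) of all tested. Without both knockout 25 and control 34, none passed, against 8 (0.02%) of all tested.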

How the data were processed

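ERRBS methylation was measured in 8 libraries, 4 knockout and 4 control mice. The deposited tables give the authors' coverage, a count of reads over each cytosine of 10 or more, and the percent of those reads showing C, per the file headers. CASAVA 1.8.2, Bismark and mm10 are named in the submitters' processing notes; the sources used here do not give trimming, filters or duplicate removal. Methylated reads were coverage times percent, whole for at least 99.96% of values within 0.05 reads. Strands of a CpG were added, CpGs with 10 or more reads in all 8 mice kept, and reads summed over 1 kb windows. Windows of 5 to 95% were tested with limma 3.58.1 in R 4.3.3 (quasi-binomial, moderated with squeezeVar), called at an adjusted p of 0.05; edgeR 4.0.16 and limma on log2 ratios were alternatives. Values and figures were made with pandas 2.3.3 and matplotlib 3.10.9. The model was tested on simulated data. Upper limits for 0 allow 3 reads and cover counting error only. They take the reads summed over CpGs as separate, so that they are too low where a read covers several CpGs. Genes are those of RefSeq GRCm38.p6. The windows and gene lists were chosen with earlier results of these data known. Named windows were the 6 of smallest p on each side, up to 3 per gene list with most CpGs, those at each level limit, the 3 largest and 3 smallest SDs, and the 3 longest runs; windows named for other reasons were chosen after their values were seen.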

Additional observations from a re-analysis of the deposited data

Results flagged for a closer look

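In 88 groups of 4 mice, 4 held a mouse far from the other 3, and chance gives about 1 in 20 for groups picked without regard to their values. That rate does not hold here, since some windows were named for their SD or p. The flagged windows of Zfpm1, Slc6a17 and Gm2808 were among those of largest or smallest SD. Control 34 had a mean level of 15.2% over the low sparse windows, with the nearest control at 23.8%. The Zfpm1 window at chr8:122287001-122288000 was at 100% in knockout 45, with the nearest knockout at 2.04%. The Slc6a17 window at chr3:107528001-107529000 was at 74.4% in knockout 28, and the other 3 knockouts were at 0. The window near Gm2808 was at 6.81% in knockout 45, with the nearest knockout at 5.38%. Outside the autosomes, the lowest knockout had 7.90 Y cytosines per 10000 listed and the highest control had 1.83, so that all knockouts were above all controls.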

How the results depend on the processing

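The number of low windows called was 0 to 5 when a mouse was left out in turn, and 0 under every other alternative run. At an unadjusted p under 0.05 there were 84 to 196 windows with a mouse left out. Their share was 5.80 to 13.5%, against 4.50 to 8.27% of all tested windows. There were 70 by edgeR (4.83%, against 3.81%) and 86 by limma on log2 ratios (5.94%, against 4.83%). Windows whose groups do not overlap numbered 81 to 206 with a mouse left out (5.59 to 14.2%, against 5.31 to 8.24% of all tested). Without both knockout 25 and control 34 they numbered 272 (18.8%, against 13.3%). Fewer mice make overlap rarer. With levels limited to 10 to 30%, 789 windows met the rule. The level of neighbours minus that of the windows was 34.9 points for windows with no CpG-dense window within 2 kb, a limit that itself removes the CpG-dense neighbours. The windows of Prss55, Bri3 and P2rx7 passed only without control 34, or without knockout 45 for the first 2. The genotype difference in mean level of the low windows stayed negative under every alternative run. The 6 windows of smallest p in each direction kept theirs under the 14 alternatives run for each, which tells little. In all of them but that near Mindy4 the groups do not overlap, so that leaving out mice cannot reverse them. The other tests use the same levels. For the other named windows, a change of direction of the genotype difference was not examined. No paired analysis was possible because the groups share no mouse number. Depth of 30 reads summed over CpGs in the thinnest window of a mouse, 3 CpGs in most windows, reads without molecular identifiers and 4 mice a group limit what a difference can show.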
